A study of Mus musculus with 3 samples.

Results

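The small proline-rich proteins were followed in primary epidermal keratinocytes of newborn mice that lack RASSF9 and of WT mice. The members are 10 genes of the family, Sprr1a, Sprr1b, Sprr2b, Sprr2d, Sprr2e, Sprr2f, Sprr2h, Sprr2i, Sprr3 and Sprr4, and a probe set was taken for a member only where the array annotation names that member and no other gene. This rule found 7 of the 10 genes, each with 1 probe set, among the 18193 genes that the array measures with a probe set of 1 symbol. Sprr2b, Sprr2e and Sprr4 have no probe set of their own and no level is given for them. The family was chosen by measured values, namely earlier results on the signal differences between RASSF9-/- and WT on the same arrays, so those differences, and the counts of members past a threshold, describe the members and are no test of them.

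There were 2 RASSF9-/- arrays, called arrays 1 and 2 here, and 1 WT array, all of neonatal ICR mice. The RASSF9-/- mice are homozygotes of 1 transgenic line, in which a gene for the latent membrane protein 1 (LMP1) of Epstein-Barr virus inserted into the first intron of Rassf9 and deleted part of it, so they carry the transgene as well as the deletion. Keratinocytes were grown as a monolayer in a serum-free keratinocyte medium low in calcium, and the methods give 1 culture plate for each sample, from 2 RASSF9-/- mice and 1 WT mouse. The sample descriptions give a culture of 48 h for both RASSF9-/- samples and 24 h for WT, whereas the methods name the longer time for every sample. With the times as described, the effect of longer culture cannot be told apart from that of genotype. The descriptions also carry an array date code, which RASSF9-/- array 1 shares with the WT array and RASSF9-/- array 2 does not.

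Small proline-rich proteins are precursors of the cornified envelope, the cross-linked protein shell that replaces the plasma membrane of a dying keratinocyte at the skin surface. Transglutaminases join them to each other and to larger partners such as loricrin through glutamine and lysine residues in their end domains, and a central stretch of proline-rich repeats of variable number separates those ends. Their genes lie side by side in the epidermal differentiation complex on mouse chromosome 3, and they are known to be switched on late in keratinocyte differentiation and by irritation, wounding and inflammation. The Sprr2 genes are the most numerous and arose by repeated duplication, so that their transcripts resemble each other closely. The RefSeq annotation places 17 Sprr genes and pseudogenes in the cluster, in the order Sprr2a1, Sprr2a2, Sprr2a3, Sprr2b, Sprr2c-ps, Sprr2d, Sprr2e, Sprr2f, Sprr2g, Sprr2h, Sprr2i, Sprr2j-ps, Sprr2k, Sprr1b, Sprr3, Sprr1a and Sprr4.

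The promoters of 5 members are shown because these genes stand for the different patterns of signal described below, and because duplicated genes of 1 cluster can be compared letter by letter. Each line gives the 200 bases before the start of transcription annotated by RefSeq (assembly GRCm38.p6), 5′ to 3′ on the strand of the gene. Sprr2d lies at chr3:92338940-92339139 (plus strand), Sprr2f at chr3:92364987-92365186 (plus strand), Sprr2h at chr3:92385485-92385684 (plus strand), Sprr1b at chr3:92438780-92438979 (minus strand) and Sprr3 at chr3:92458721-92458920 (minus strand). Capitals mark matches to an AP-1 motif (TGANTCA), a shortened octamer motif (ATGCAAA, which here reads TTTGCAT on the strand shown) and a TATA box (TATAAA).
Sprr2d: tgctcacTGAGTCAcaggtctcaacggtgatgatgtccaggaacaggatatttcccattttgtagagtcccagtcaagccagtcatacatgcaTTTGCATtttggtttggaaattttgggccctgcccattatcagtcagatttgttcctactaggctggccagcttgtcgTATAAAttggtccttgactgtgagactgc
Sprr2f: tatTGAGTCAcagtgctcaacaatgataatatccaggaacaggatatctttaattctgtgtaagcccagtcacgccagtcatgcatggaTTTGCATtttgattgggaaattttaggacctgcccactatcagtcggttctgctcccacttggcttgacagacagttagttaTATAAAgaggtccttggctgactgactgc
Sprr2h: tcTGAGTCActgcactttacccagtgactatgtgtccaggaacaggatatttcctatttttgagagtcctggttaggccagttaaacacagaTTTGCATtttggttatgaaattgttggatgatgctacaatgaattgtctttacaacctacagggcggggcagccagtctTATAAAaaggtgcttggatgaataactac
Sprr1b: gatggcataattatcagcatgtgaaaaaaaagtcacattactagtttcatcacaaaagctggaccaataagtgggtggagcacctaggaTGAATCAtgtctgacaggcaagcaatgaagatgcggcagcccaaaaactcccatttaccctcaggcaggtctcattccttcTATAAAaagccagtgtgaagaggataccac
Sprr3: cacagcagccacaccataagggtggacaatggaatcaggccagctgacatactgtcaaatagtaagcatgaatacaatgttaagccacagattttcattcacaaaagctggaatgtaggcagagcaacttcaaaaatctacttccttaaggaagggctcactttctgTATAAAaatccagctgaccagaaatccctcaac

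The TGANTCA letters, a loose form of the site that Fos and Jun proteins of the AP-1 family bind, were in the promoter windows of 8 of the 10 members. Windows of 300 bases were searched on both strands, 250 before the start and 50 from it on, and 7.81% of all 32851 RefSeq windows hold this motif. The Sprr2 members had it at a similar place, with its first base 193 bases before the start in Sprr2d, Sprr2e and Sprr2i, 195 in Sprr2b, 197 in Sprr2f and 198 in Sprr2h. Sprr1b had it 111 bases before the start, and Sprr1a had 2 matches, at 146 and 116 bases. The middle base of the match was A in Sprr1b and G in the other members that had it. It was not in the windows of Sprr3 and Sprr4. The shortened octamer is part of a motif that POU-domain factors bind. It was in all 6 Sprr2 members between 107 and 111 bases before the start and in none of the other 4 members, and 4.63% of all windows hold it. A TATA box was in every member window except that of Sprr4, against 13.6% of all windows, and began 29 bases before the start in each Sprr2 member.

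These matches are a description of letters and not of bound sites, and the members' windows are copies of each other to different degrees, so they are not independent. Over the 250 bases before the start, Sprr2d and Sprr2f were 73.6% identical, Sprr2d and Sprr2h 67.6%, and Sprr2f and Sprr2h 61.2%. The 15 pairs of Sprr2 members ranged between 61.2% and 90.0%, with Sprr2d and Sprr2e the most alike, and the 30 other pairs of members ranged between 47.2% and 58.0%. The letters AGGAAG (ETS factors) were in 3 members against 35.4% of all windows, GAANNGAA (interferon-stimulated response element) in 4 against 20.1%, TGACNNNGC (antioxidant response element) in 2 against 12.4%, and CACNCCC (KLF factors) in 0 against 29.2%. In Sprr1a the TGACNNNGC match includes the bases of an AP-1 match. The letters TTCNNNGAA (STAT factors, 8.3% of all windows), GGNNNTTCC (NF-kB, 18.5%) and TTGCNNAA (C/EBP factors, 10.8%) were each in 1 member.

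**Figure D1:**
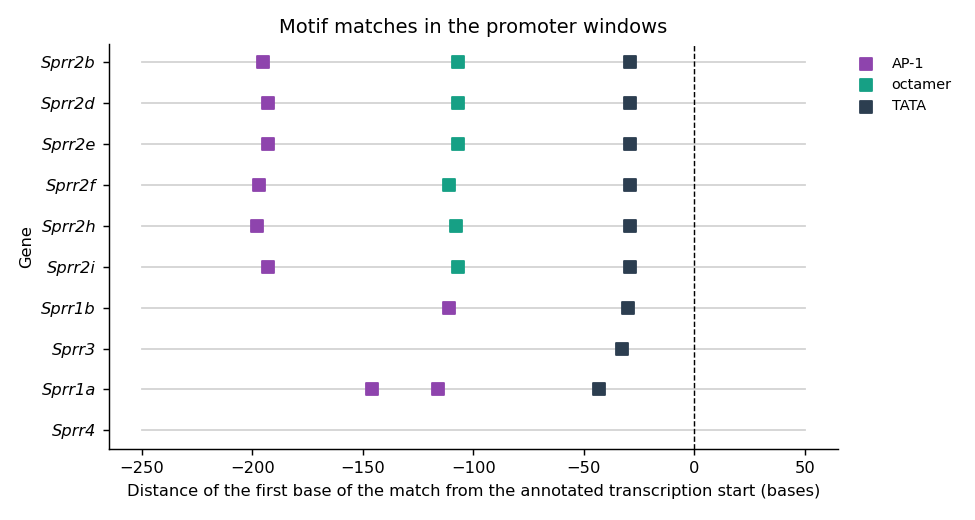
Matches to the AP-1, octamer and TATA motifs in the promoter windows of the 10 members, which are ordered down the page as in the gene cluster. The x axis is the distance in bases of the first base of the match on the strand of the gene from the annotated start (dashed line), and the 6 Sprr2 members show the same order of 3 matches, at nearly the same distances.

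The values are MAS5 signals, linear intensities that summarize the short oligonucleotide probes of a probe set, on an Affymetrix mouse genome array. The authors scaled every array to a trimmed mean of 500, and the median signal was 99 and 81.7 on RASSF9-/- arrays 1 and 2 and 90.8 on the WT array. The highest signal of control probe sets for Bacillus subtilis genes was 78.4. Lower values were taken as background, and a fold against such a value is a lower bound. Signals of different probe sets depend on their probes and are not compared with each other. The disrupted gene was low on both RASSF9-/- arrays: 1 probe set of Rassf9 gave 59.6 and 120 on RASSF9-/- arrays 1 and 2 against 478 for WT, at least 4.93-fold lower, and the other gave 68.2 and 76.7 against 340 for WT, at least 4.34-fold lower. Signal ratios of the 3′ to the 5′ probe sets, which rise when RNA is degraded, were 0.939 and 0.832 for Gapdh on RASSF9-/- arrays 1 and 2 against 0.841 for WT, and those for actin were 1.41 and 1.37 against 1.43.

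The 7 members fell into 3 patterns. Sprr2d and Sprr2f were far above WT on both RASSF9-/- arrays. Sprr2h was close to WT on RASSF9-/- array 1 and 2.07-fold above it on array 2. Sprr2i, Sprr1b, Sprr3 and Sprr1a lay on either side of WT, lower on RASSF9-/- array 1 and higher on array 2. All 7 members had their highest signal on RASSF9-/- array 2.

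Sprr2d, an Sprr2 envelope precursor, had signals of 15040 and 16294 on RASSF9-/- arrays 1 and 2 against 498 on the WT array. Both RASSF9-/- values were far from WT and close to each other, 30.2-fold and 32.7-fold above it. On the log2 scale the mean difference was 4.97 with an SD of 0.08 between the 2 RASSF9-/- arrays, and the standard error from the fit across all genes was 0.32. By the smaller of its 2 differences it ranked number 6 among the 3728 genes that were higher on both RASSF9-/- arrays, of 11089 genes tested. No other measured member came near both this size and this likeness between the RASSF9-/- arrays. Sprr2e, the member with the promoter most like that of Sprr2d, has no probe set of its own. Whether the Sprr2d probe set also binds other Sprr2 transcripts was not tested.

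Sprr2f, which follows Sprr2d and Sprr2e in the cluster, had signals of 1006 and 2010 on RASSF9-/- arrays 1 and 2 against 73.9 on the WT array. The WT value was in the background, so the mean of the RASSF9-/- arrays was at least 18.1-fold higher. Here the RASSF9-/- arrays differed by 1.997-fold, which is much less than their distance from WT. The measured log2 difference was 4.27 (SD 0.71 between the RASSF9-/- arrays, standard error 0.56), and it ranked number 12 by the smaller difference. In Sprr2f the size rests on a WT level that the array did not resolve, whereas the WT signal of Sprr2d was above the background.

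Sprr2h, 2 genes further along, had signals of 9618 and 18356 on RASSF9-/- arrays 1 and 2 against 8874 on the WT array. Its probe set is of the _s_at kind, whose probes are shared by transcripts of more than 1 gene. RASSF9-/- array 1 was near WT, with a log2 difference of 0.12, and array 2 was at 1.05, so the mean of 0.58 was smaller than the SD of 0.66 between the RASSF9-/- arrays. When each array was divided by its median the difference on array 1 was -0.01, so Sprr2h was then not higher on both RASSF9-/- arrays. With the deposited scaling and after quantile normalization it was higher on both. Sprr2i, its neighbour, was dim, with 104.5 and 185 on RASSF9-/- arrays 1 and 2 against 149 for WT. Its mean log2 difference was -0.10 with an SD of 0.58, and the WT value lay between the RASSF9-/- values.

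Sprr1b, an envelope precursor that is used as a marker of squamous differentiation, varied most within the RASSF9-/- genotype. Its signals were 3238 and 27961 on RASSF9-/- arrays 1 and 2 against 11645 on the WT array. RASSF9-/- array 1 was 3.6-fold below WT and array 2 was 2.4-fold above it, an 8.64-fold gap between cells of the same genotype. The log2 difference between RASSF9-/- arrays 2 and 1 was 3.11, number 22 of the 11089 genes, and the mean difference from WT was -0.29 with an SD of 2.20.

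Sprr3, an envelope precursor best known from internal squamous epithelia such as the esophagus, had signals of 109 and 338 on RASSF9-/- arrays 1 and 2 against 182 for WT. The 2 RASSF9-/- arrays were 3.1-fold apart and enclosed the WT value, with a mean log2 difference of 0.08 (SD 1.15). Sprr1a, an envelope precursor that is also known as an injury-response gene of neurons, had signals of 18045 and 34447 on RASSF9-/- arrays 1 and 2 against 30900 for WT. Its arrays showed the same order with a smaller gap of 1.91-fold, and the mean log2 difference was -0.31 (SD 0.66). The Sprr1a signals were above 99.3% of all probe sets on RASSF9-/- array 1, 99.9% on RASSF9-/- array 2 and 99.8% on the WT array, a range in which the array may understate a difference.

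**Figure D2:**
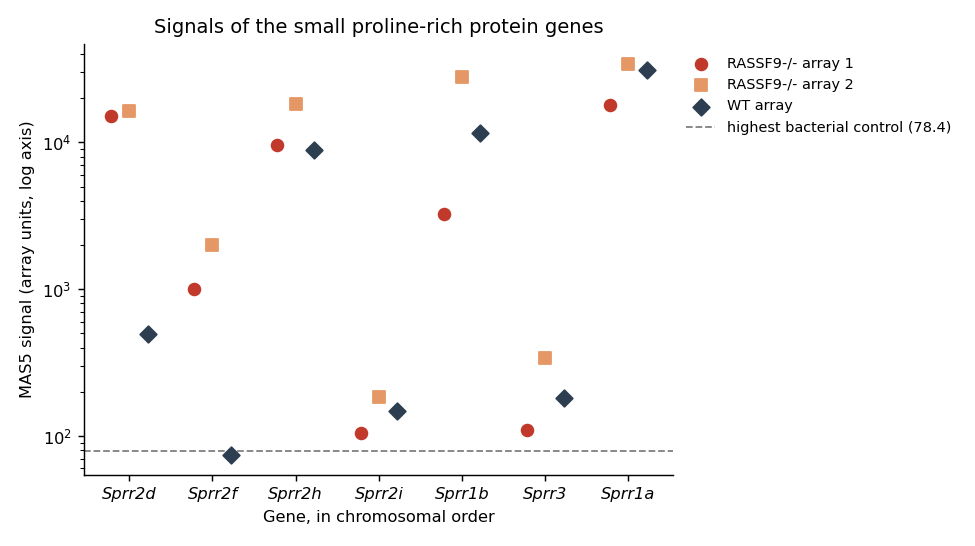
MAS5 signal (array units, log axis) of the 7 members that have a probe set of their own, in the order of the cluster, with 1 marker for each array and the background limit of 78.4 as a dashed line. Both RASSF9-/- markers lie far above WT for Sprr2d and Sprr2f, and WT lies between the RASSF9-/- markers for Sprr2i, Sprr1b, Sprr3 and Sprr1a.

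All 7 members passed the filter on low signals and were tested in the fit across all genes, Sprr2f by way of its RASSF9-/- signals, since its WT signal alone was below the filter value of 82.7. With limma, 1 of the 7 members (Sprr2d) was higher at an adjusted p under 0.05, and 0.0812% of all genes were. The count of members was 0 with quantile normalization, without the intensity trend of limma, with background values raised to the bacterial limit and with the methods' t-test after adjustment. Lower at the same threshold were 0 members and 0% of all genes. At an unadjusted p under 0.05 from limma there were 2 members, Sprr2d and Sprr2f, and 5.55% of all genes. By size alone, 2 of the 7 members were at least 2-fold higher than WT on both RASSF9-/- arrays, against 7.43% of probe sets with 1 symbol, and 0 were at least 2-fold lower on both, against 5.47%. The members were chosen with this contrast known, so these counts are a description, and nothing is read from their distance to the shares over all genes. A single WT array gives no spread of its own, and each gene has 1 residual degree of freedom, the gap between its RASSF9-/- arrays. Limma adds 5.31 prior degrees of freedom drawn from all genes by intensity, so a standard error rests largely on other genes. For Sprr2d the SD of the RASSF9-/- arrays was 0.08 and the standard error was 0.32. The spread of the other genes also comes from the RASSF9-/- pair. WT is thus taken to vary as that pair does, and any p reaches no further than these samples.

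The members also differed between the 2 RASSF9-/- arrays. RASSF9-/- array 2 was above RASSF9-/- array 1 for 7 of 7 members, against 43.7% of probe sets with 1 symbol. The gap was at least 2-fold for Sprr1b and Sprr3, 2 of 7, against 12.2%. A signal below WT on RASSF9-/- array 1 and above it on array 2, the pattern of 4 of the 7 members, was found in 13.7% of probe sets. The median gap of the members was 0.93 on the log2 scale, and that of all genes tested was -0.07. Division of each array by its median moved the gap of the members to 1.21 and that of all genes to 0.21. RASSF9-/- array 2 was then above array 1 for 7 of 7 members against 64.4% of genes tested, and after quantile normalization for 7 of 7 members against 48.4%. The 2 RASSF9-/- samples come from different mice and have different array date codes, and mouse and date code cannot be told apart as the source of this gap.

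Other Sprr probe sets of the cluster showed how unequal close relatives were. Sprr2k, a gene between Sprr2i and Sprr1b, had signals of 374 and 836 on RASSF9-/- arrays 1 and 2 against 502 for WT, the same order of arrays as these 2 members. The transcribed pseudogene Sprr2j-ps had 62.7 and 955 on RASSF9-/- arrays 1 and 2 against 9.9 for WT. Only RASSF9-/- array 2 was above the background there, at least 12.2-fold above WT, and no fold is given for the mean. The log2 differences on single arrays of such a probe set depend on values in the background and have no firm size.

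Another 3 probe sets carry the symbols of several near-identical Sprr2a copies, and no single gene is named from them. The brightest, of the _x_at kind, had 36606 and 17121 on RASSF9-/- arrays 1 and 2 against 33356 for WT, and the second, of the _a_at kind, had 18549 and 11153 against 23208 for WT. In both, RASSF9-/- array 2 had the lowest signal of the 3 arrays, whereas it had the highest for every member. The dimmest probe set had 56.7 and 61.1 on RASSF9-/- arrays 1 and 2 against 379 for WT, with both RASSF9-/- arrays in the background, at least 4.84-fold lower. Which Sprr2 transcripts each probe binds was not tested, since no probe sequences were used here. The RefSeq windows of the Sprr2a copies hold neither the AP-1 nor the octamer nor the TATA letters. The longest stretch shared by the windows of Sprr2a1 and Sprr2b, of 18 bases, begins 6 bases after the start in Sprr2a1 and 80 bases before it in Sprr2b, so these windows cover different stretches of the duplicated sequence.

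**Figure D3:**
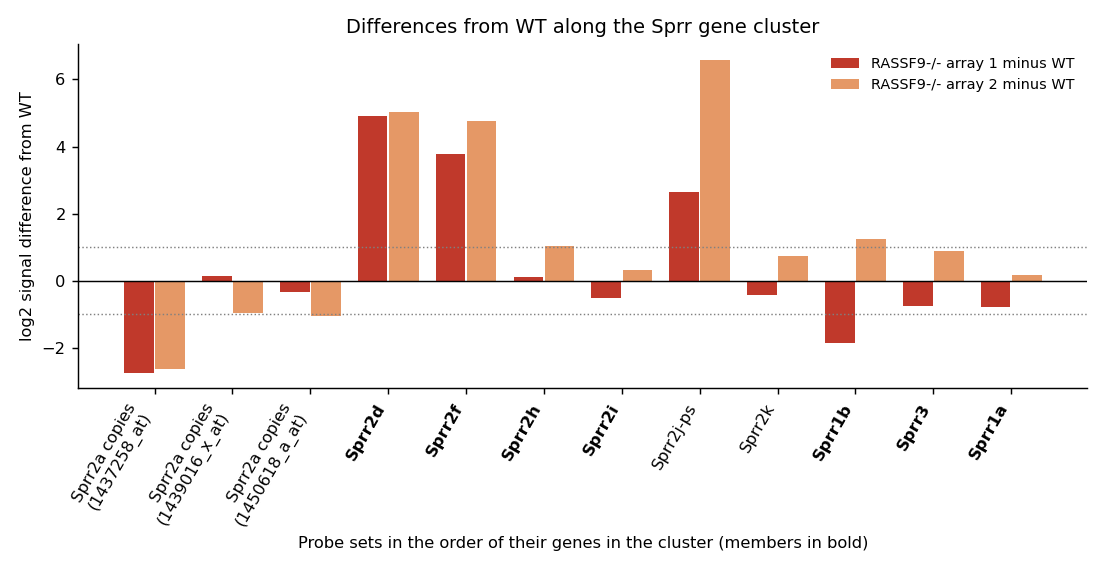
Log2 signal difference from WT of each Sprr probe set, for RASSF9-/- array 1 (left bar) and RASSF9-/- array 2 (right bar), in the order of the genes in the cluster, with dotted lines at a 2-fold difference. Both bars are high for Sprr2d and Sprr2f, the bars of Sprr1b point in opposite directions, and the bars of Sprr2f, Sprr2j-ps and the leftmost Sprr2a probe set rest on at least 1 array in the background.

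Genes of other envelope proteins also had higher signals on RASSF9-/- array 2 than on array 1. Of 34 listed envelope genes of the same complex, such as loricrin, filaggrin, involucrin and the late cornified envelope (Lce) genes, 21 were tested. RASSF9-/- array 2 was above array 1 for 7 of 7 members and for 21 of these 21 genes (20 under quantile normalization), against 45.1% of all genes tested. The median log2 difference from WT on RASSF9-/- arrays 1 and 2 was -0.51 and 1.05 for the members, against -0.99 and 1.11 for these genes. The 21 genes were higher on both RASSF9-/- arrays in 5 cases, lower on both in 4 and on opposite sides of WT in 12, where the shares of all genes tested were 33.6%, 32.7% and 33.7%. None passed the test, with 3 at an unadjusted p under 0.05 from limma, against 5.55% of all genes.

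Loricrin (Lor), the main partner of the small proline-rich proteins in the epidermal envelope, had 328 and 2130 on RASSF9-/- arrays 1 and 2 against 796 for WT, the pattern of Sprr1b and Sprr3. Filaggrin (Flg), which bundles keratin filaments, had 53.1 and 570 against 589 for WT, with array 1 in the background. Involucrin (Ivl), a scaffold protein of the early envelope, had 1791 and 1822 against 5062 for WT. The involucrin values were alike on both RASSF9-/- arrays, as those of Sprr2d were, but lay below WT. Lce1h had 16798 and 26182 on RASSF9-/- arrays 1 and 2 against 3338 for WT, and Lce1i had 1571 and 5042 against 1009. Both probe sets are of the _x_at kind, whose probes can also bind other transcripts. Crct1, a cysteine-rich protein gene of the complex, had 29286 and 35440 against 22449 for WT. On the lower side, Lce1a2 had 260 and 513 against 943 for WT, and Prr9, another proline-rich protein gene of the complex, had 1701 and 1851 against 3067.

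Of 16 genes of cross-linking and of the envelope scaffold, transglutaminases included, 13 were tested. Here 0 were higher on both RASSF9-/- arrays (33.6% of all genes), 6 were lower on both (32.7% of all genes) and 7 lay on opposite sides of WT (33.7% of all genes). The median log2 difference was 0.08 for the members, -0.57 for these genes and -0.01 for all genes. None passed the test, with 2 at an unadjusted p under 0.05 from limma, against 5.55% of all genes. Sciellin (Scel), an envelope precursor, had 517 and 1124 on RASSF9-/- arrays 1 and 2 against 5728 for WT. Cystatin E/M (Cst6), an inhibitor of the proteases that act on transglutaminase, had 7428 and 5376 against 22046 for WT. Krtdap, a secreted protein of differentiating keratinocytes, had 1599 and 10077 against 16758 for WT. RASSF9-/- array 2 was above array 1 for 12 of the 13 genes under each scaling, Cst6 being the exception.

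**Figure D4:**
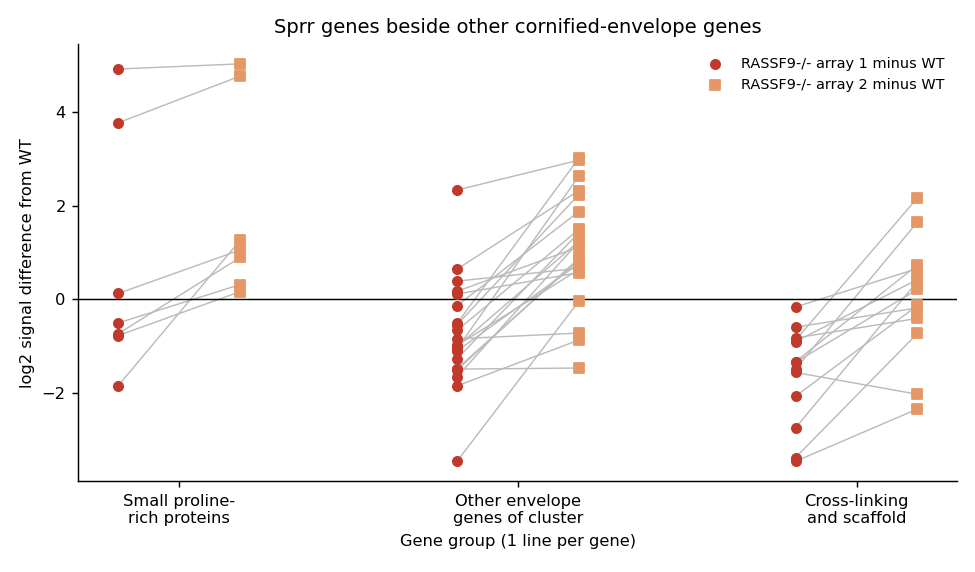
Log2 signal difference from WT for the 7 members, 21 other envelope genes of the complex and 13 cross-linking and scaffold genes, with 1 line for each gene joining RASSF9-/- array 1 (left, circle) to RASSF9-/- array 2 (right, square). Nearly every line slopes upward to RASSF9-/- array 2, and the 2 highest lines of the members are Sprr2d and Sprr2f.

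Factors that act on Sprr promoters or in epidermal differentiation were divided. Of 24 listed, 21 were tested, and 7 were higher and 9 lower on both RASSF9-/- arrays, near the shares of all genes (33.6% and 32.7%). None passed the test, and 1 of the 21 was at an unadjusted p under 0.05 from limma, against 5.55% of all genes. Among AP-1 subunits, whose motif the Sprr2d and Sprr2f promoters share with the other Sprr2 members, Junb had 3634 and 4346 on RASSF9-/- arrays 1 and 2 against 2806 for WT. Jun had 2618 and 2215 against 3875 for WT, and Fos had 280 and 431 against 562. Fosl1, named after its values were seen, had 347 and 2071 on RASSF9-/- arrays 1 and 2 against 316 for WT, high on array 2 alone. The ETS factors Ehf (817 and 769 against 607 for WT) and Elf3 (771 and 1388 against 619) were somewhat higher on both RASSF9-/- arrays, and Cebpa, a factor of growth arrest and differentiation, had 698 and 502 against 1241 for WT.

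Of 13 cytokines and growth factors known to induce Sprr genes, 7 were tested. There were 5 higher on both RASSF9-/- arrays and 0 lower on both, against 33.6% and 32.7% of all genes. The list was chosen with earlier results of these data known, so these counts are a description. None passed the test, and 2 of the 7 were at an unadjusted p under 0.05 from limma, against 5.55% of all genes. Il1a, an alarm cytokine stored by keratinocytes, had 3235 and 2688 on RASSF9-/- arrays 1 and 2 against 486 for WT. Tnf had 1782 and 1391 against 575 for WT, and Osm had 108 and 126 against 64.3 for WT, which was in the background. Il1a and Tnf were similar on the 2 RASSF9-/- arrays and away from WT on both. Il1b and Tgfa lay on opposite sides of WT. Their log2 differences on RASSF9-/- arrays 1 and 2 were 0.491 and -0.428 for Il1b and -0.418 and 0.105 for Tgfa. Whether any of these factors acts on Sprr genes in these cells was not tested.

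Among the other 11088 genes tested, the 5 whose pair of differences from WT lay nearest to that of Sprr2d were Lyz1, Cxcl2, Ptpn22, Mki67 and Sprr2f. Likeness was measured as the Euclidean distance of the 2 log2 differences over the 3 arrays, and the distances were 0.34, 0.79, 0.99, 1.18 and 1.18. Lyz1, a lysozyme gene, had 1591 and 1241 on RASSF9-/- arrays 1 and 2 against 43.4 for WT. Its probe set is of the _x_at kind, whose probes can also bind other transcripts. Cxcl2, a chemokine for neutrophils, had 3243 and 1958 against 62.4 for WT. Ptpn22, a tyrosine phosphatase of blood cells, had 274 and 502 against 17.8 for WT, and Mki67, a marker of proliferating cells, had 193 and 588 against 8.3. All 5 had a WT signal in the background, which that of Sprr2d was not, so their likeness to it rests on WT values without a firm level.

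The labelled cell type and other cells of skin were followed by marker lists. In bulk samples such as these, fewer cells of a type and less RNA per cell cannot be told apart. Of 10 listed markers of basal keratinocytes 9 have a probe set and 8 were above the background on each array, Krt15 being in the background throughout. Their summed signal was 92618 and 112134 on RASSF9-/- arrays 1 and 2 against 110811 for WT. Krt5 and Krt14 made up most of that sum and did not share its order of arrays. Krt5 had 27760 and 34616 on RASSF9-/- arrays 1 and 2 against 34842 for WT, and Krt14 had 38752 and 38300 against 38140. Trp63, a regulator of basal keratinocytes, had 1460 and 1543 on RASSF9-/- arrays 1 and 2 against 3239 for WT. Of 8 leukocyte markers, 5 and 3 were above the background on RASSF9-/- arrays 1 and 2 and 3 on the WT array, with sums of 1653 and 2334 against 1475. Ptprc, Itgam and Cd207 were in the background on every array, and Cd68, Adgre1, Csf1r, Cd74 and Cd3e were above it on RASSF9-/- array 1. Fibroblast markers (8 and 5 of 8 above the background on RASSF9-/- arrays 1 and 2, 7 for WT) summed to 1365 and 999 against 1789 for WT. Melanocyte markers were all above the background on every array, 8 of 8, and summed to 25346 and 35634 against 29748 for WT. Of 5 endothelial markers, 3 and 1 were above the background on RASSF9-/- arrays 1 and 2 and 1 for WT, with sums of 355 and 335 against 262 and with Pecam1 and Cdh5 in the background throughout. The part of these cells in the Sprr values was not tested.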

How the data were processed

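RNA of 3 keratinocyte samples (2 RASSF9-/-, 1 WT) was measured on 1 array each. The deposited values are MAS5 signals, on a linear intensity scale, for 45037 probe sets and 64 controls. The authors had scaled each array, and a trimmed mean of 500 was found on every one when 2% was removed from either end. The version of the software and the genome build are not given in the sources used here. The platform annotation pairs 34945 probe sets with 1 symbol, 932 with several and 9160 with none. From the deposited signals, log2 values were taken with no pseudocount and no further normalization. Probe sets with a mean log2 signal at or above the 50th percentile (a signal of 82.7) were kept and each gene was represented by its brightest one, giving 11089 genes. The 2 genotypes were fitted with limma 3.58.1 (lmFit, then eBayes with an intensity trend) in R 4.3.3, using two-sided tests, Benjamini-Hochberg adjustment over all genes and 5.31 prior degrees of freedom, and the procedure was tested on simulated data. Array date code was not fitted, since no residual degree of freedom would remain.

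The members and lists were chosen with earlier results of these data known. Genes were named by a rule: all members, Rassf9, Ivl, Lor, Flg and the 5 genes nearest to Sprr2d. From each list it took up to 3 genes higher and 3 lower on both RASSF9-/- arrays, by the smaller difference. Outside this rule, Fosl1 was named after its values were seen, and Il1b and Tgfa, on opposite sides of WT, were also named. Lists were described by counts and medians. A lower bound sets values under 78.4, the highest of 27 bacterial controls on the 3 arrays, to that signal. All 10 members matched the RefSeq promoter table, and identity was computed with Biopython 1.88. Alternatives were other scalings, filters, a pseudocount, other uses of probe sets, no intensity trend, raised background values, the methods' t-test, other fold thresholds and leaving out each RASSF9-/- array. The number of arrays limits the precision. No library depth applies to arrays.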

Additional observations from a re-analysis of the deposited data

How the results depend on the processing

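The mean log2 difference from WT kept its direction for each of the 7 members under 2 other scalings, 2 other filters, a pseudocount of 32, other ways of combining probe sets, limma without the intensity trend and background values raised to the bacterial controls. Of 61 such values, 60 stayed within the SD of the RASSF9-/- arrays and 1 moved, Sprr2d at 4.89 with the pseudocount. Each member has 1 probe set, so the filters, the ways of combining probe sets and the intensity trend left its difference the same by design. Only the other scalings, the pseudocount and the raised background values could change a difference, and the remaining values among the 61 show no stability. When a RASSF9-/- array was left out, the sign of 4 members (Sprr1a, Sprr1b, Sprr2i and Sprr3) depended on which array it was, as with Sprr1b at 1.26 without array 1 and -1.85 without array 2. The call of Sprr2d by limma was less stable. The number of members higher was 0 with quantile normalization, without the intensity trend, with background values raised and with the methods' t-test after adjustment (1 member at an unadjusted p under 0.05 in that test, 2 in the limma fits), against 1 otherwise, and the cause was not tested. Over all genes the number higher was between 0 and 10 across the limma settings. The median log2 difference of the members, 0.08, was between -0.51 and 1.05 when a RASSF9-/- array was left out (-0.51 without array 2, 1.05 without array 1). Members at least 2-fold higher than WT were then between 2 and 4 (Sprr1b, Sprr2d, Sprr2f and Sprr2h on array 2 alone), and members at least 2-fold lower between 0 and 1 (Sprr1b on array 1 alone). Members at least 2-fold higher on RASSF9-/- array 2 than on array 1 were 6 after division by the median and 4 after quantile normalization, against 2. At a threshold of 1.5-fold they were 6. Division by the median also moved all genes, with RASSF9-/- array 2 above array 1 for 64.4% of genes tested, against 45.1%. The shares of all probe sets at these settings, and with an array left out, were not computed, so nothing is read from these counts. At the filter of the 75th percentile 5 members were tested. No paired analysis was possible because there is 1 WT array and so fewer than 2 replicate numbers are shared. Signals near 78.4 set the limit for the WT level of Sprr2f.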
